A study of Mus musculus with 7 samples.

Results

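The genes of the AP-1 transcription factors were examined in mouse mammary glands with an excess of the A form of the progesterone receptor (PRA). The members were 10 genes (Fos, Fosb, Fosl1, Fosl2, Jun, Junb, Jund, Atf3, Maff and Batf), found by their names in the scanner files, and 15 of the 56605 probes on the array belong to them. A probe was kept where all arrays of a genotype had a Cy5 signal well above background. This held for 34287 probes, 12 of them from the members, and each of the 10 genes kept at least 1 probe. The genes were chosen with the genotype difference on these same arrays known, so their differences are given as a description, with standard errors but no p-value.

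RNA came from 3 wild-type and 4 PRA transgenic mice. All were nulliparous FVB females at diestrus, aged 20 to 25 weeks, and 1 abdominal gland per animal was used after its lymph nodes had been cut out. The PRA transgenic animals were bigenic, with GAL-4 under a murine cytomegalovirus promoter acting on a UAS-PR-A transgene, so that expression of the transgene was not restricted to the mammary epithelium by its promoter. The wild-type mice were littermates without these transgenes. Gland RNA was labeled with Cy5 and hybridized together with Universal Mouse Reference RNA in Cy3, which was pooled from 11 mouse cell lines, and each value below is a log2 ratio of gland to reference unless Cy5 alone is named. Zero means equal signals in gland and reference. Pgr, the endogenous receptor gene, had log2 ratios of 7.05, 4.30 and 4.04 in wild-type and 5.38, 4.72, 4.49 and 3.32 in PRA transgenic glands. For that probe the reference was well above background on 0 arrays, so these ratios do not show whether Pgr differed between the genotypes. Whether the probe detects the transgene was not tested.

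All 7 arrays lay on 1 slide, with wild-type in row 1 and PRA transgenic in row 2, so that an effect of the row and one of the genotype cannot be told apart. Between 62.7% and 66.2% of probes were well above background in Cy5 on the wild-type arrays and between 56.7% and 60.2% on the PRA transgenic arrays. In the common reference the shares were 53.2% to 54.0% and 47.2% to 50.6%. Markers of luminal epithelium were detected on these arrays for 7 of 7 genes (Krt18 the brightest in Cy5), and those of white adipocytes for 5 of 5 (Fabp4 the brightest), as is usual for whole mammary tissue. In whole tissue, fewer cells of a type and less RNA per cell cannot be told apart.

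AP-1 is a dimer of basic leucine zipper (bZIP) proteins, in which a Jun protein pairs with itself, with a Fos protein or with a relative such as Atf3 or Batf, and binds short palindromic sites in DNA. Fos, Fosb and Junb are immediate-early genes, switched on within minutes by growth factors, stress and MAP kinase signaling and just as quickly silenced, while Jund is expressed more steadily. In the mammary gland AP-1 takes part in epithelial proliferation and in the remodeling after weaning, and steroid hormone receptors can act through AP-1 bound at promoters that lack a receptor site of their own.

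Fos and Junb, the member genes with the largest differences, and Fosb and Jun, their closest relatives here, are shown by the 250 bases before their start sites, to let the letters around known promoter elements be seen beside the values. The sequences are from RefSeq on GRCm38.p6, written 5′ to 3′, and 9 of the 10 genes were found in the table. Capitals mark TGACG or its reverse complement CGTCA, the half-site of the cyclic AMP response element, extended in Fosb and Junb to the match of TGACGCNAG. They also mark TATAAA in Fos and TGACATCA in Jun.
Fos, chr12:85473640-85473889, plus strand: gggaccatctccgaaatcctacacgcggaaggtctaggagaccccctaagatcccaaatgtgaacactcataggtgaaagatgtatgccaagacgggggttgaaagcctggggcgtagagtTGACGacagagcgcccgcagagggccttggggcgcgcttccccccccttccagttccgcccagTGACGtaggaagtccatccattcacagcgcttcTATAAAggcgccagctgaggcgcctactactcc
Fosb, chr7:19310046-19310295, minus strand: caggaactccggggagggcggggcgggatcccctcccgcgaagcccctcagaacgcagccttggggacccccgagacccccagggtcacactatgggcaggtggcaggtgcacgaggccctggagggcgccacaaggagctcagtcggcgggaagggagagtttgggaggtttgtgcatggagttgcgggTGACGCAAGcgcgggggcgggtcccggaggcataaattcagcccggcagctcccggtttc
Jun, chr4:95052223-95052472, minus strand: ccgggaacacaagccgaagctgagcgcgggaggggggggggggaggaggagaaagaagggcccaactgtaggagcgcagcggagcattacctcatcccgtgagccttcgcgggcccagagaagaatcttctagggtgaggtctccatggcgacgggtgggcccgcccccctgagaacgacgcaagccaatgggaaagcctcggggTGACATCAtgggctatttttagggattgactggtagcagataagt
Junb, chr8:84978749-84978998, minus strand: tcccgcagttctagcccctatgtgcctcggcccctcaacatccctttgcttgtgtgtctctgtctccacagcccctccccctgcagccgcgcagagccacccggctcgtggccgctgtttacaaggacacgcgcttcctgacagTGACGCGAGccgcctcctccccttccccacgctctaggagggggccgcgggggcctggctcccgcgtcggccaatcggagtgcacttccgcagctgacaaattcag

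In Fos the half-site began 129 and 66 bases before the start, and TATAAA 33 bases before it. Fosb had a half-site at 60 bases and Junb at 106 bases, and there the letters ran on as TGACGCAAG in Fosb and TGACGCGAG in Junb. Among 32851 promoter windows of the same length, searched on both strands, 17.8% held TGACG and 0.557% held TGACGCNAG. Both patterns were picked after the windows had been read. The half-site was present in 6 of the 9 member genes with a window (Fos, Fosb, Junb, Atf3, Maff and Batf), and it is contained in the full element TGACGTCA.

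The full element TGACGTCA was present in 1.55% of all windows and, among the members, in 1 of the 3 windows of Maff, 29 bases before the start. TGACTCA, the classical AP-1 site, was present in 4.46% of windows and in 0 of 11 member windows. TGACATCA, a variant with which Jun responds to its own product, was present in 2.93% of windows, in Jun and in another window of Maff, in both 45 bases before the start. TATAAA was found in 7.59% of windows and the CArG box, the site of serum response factor, in 1.47%, with 1 and 0 member windows. These are matches of letters in a short window and were not tested for binding. Sequence farther upstream than 250 bases was not searched, so a count of 0 here does not mean that a promoter lacks the site.

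Across the 10 genes, represented each by its brightest kept probe, 7 differences between PRA transgenic and wild-type glands were negative and 3 positive. Their median was -0.28 on the log2 scale, against 0.01 over all 22486 genes. In 2 genes (Fosb and Junb) every PRA transgenic value lay below every wild-type value and in 1 (Fosl1) every value lay above, where 4.5% and 4.59% of all genes did so. Because the genes were chosen on this difference, nothing is read from these counts.

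**Figure D1:**
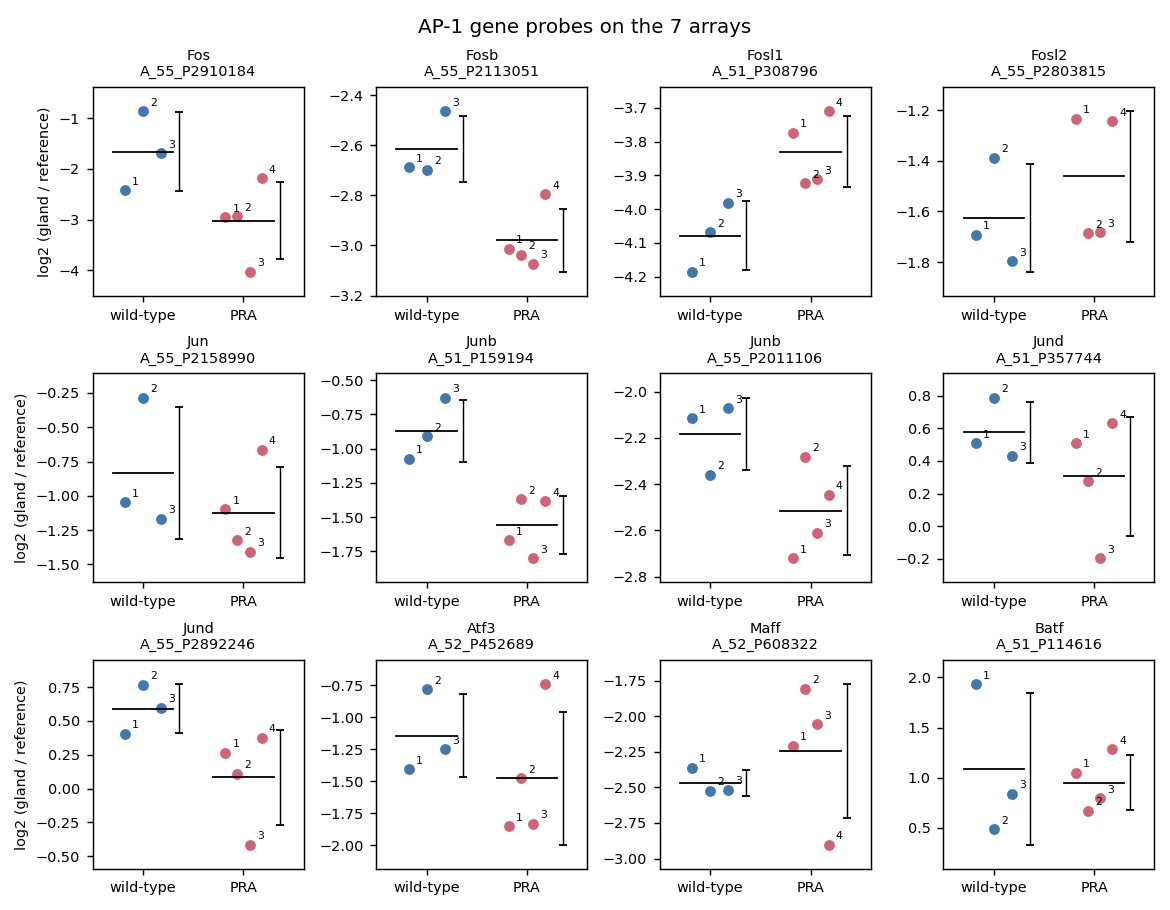
Log2 ratio of gland to reference for the 12 kept probes of AP-1 genes, 1 panel per probe, with 1 numbered point per array, a line at the mean and a bar of 1 SD; each vertical axis has its own range. Wild-type and PRA transgenic points separate for Fosb, Fosl1, Junb (A_51_P159194) and Jund (A_55_P2892246), and PRA transgenic replicate 4 lies at the wild-type end of its group for Fos, Jun and Atf3.

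The Fos family supplies the partners that need a Jun protein to bind DNA. Fos, the founding member, was measured by 1 probe (A_55_P2910184, chr12:86818118-86818177 on mm9, plus strand). Its log2 ratios were -2.42, -0.85 and -1.69 in wild-type replicates 1 to 3 and -2.95, -2.94, -4.03 and -2.18 in PRA transgenic replicates 1 to 4. The means were -1.65 ± 0.78 (SD, n = 3) and -3.03 ± 0.76 (SD, n = 4), a difference of -1.37 (standard error 0.50 from limma) or 2.59-fold lower. The groups overlapped, since PRA transgenic replicate 4 lay above wild-type replicate 1. Among PRA transgenic glands replicates 1 to 3 lay below the wild-type range and replicate 4 inside it. Leaving out wild-type replicate 2, the highest array, gave a difference of -0.97, and leaving out wild-type replicate 1 gave -1.75.

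Fosb, a close paralog of Fos, varied far less. Its kept probe (A_55_P2113051, chr7:19888168-19888227, minus strand) gave -2.69, -2.70 and -2.46 in wild-type and -3.01, -3.04, -3.07 and -2.80 in PRA transgenic glands. The groups did not overlap, with a difference of -0.36 (standard error 0.13), 1.29-fold lower. In Cy5 alone, on the log2 scale relative to the array median, wild-type values were -0.42, -0.43 and -0.23 and PRA transgenic values -0.77, -0.78, -0.85 and -0.69, again without overlap. The other Fosb probe (A_55_P2744102), which starts 1978 bases away, had a Cy5 signal well above background in 2 of 3 wild-type and 0 of 4 PRA transgenic glands and was not kept. Its ratios were -1.21, -1.46 and -0.85 in wild-type and -2.11, -2.09, -2.45 and -1.70 in PRA transgenic glands. The dim group has only a bound, which lay above the wild-type mean, so neither a fold nor an order of the groups is read from this probe.

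Fosl1 (Fra-1), a Fos relative without the activation domain of Fos that is common in invasive tumor cells, lay on average 15.3-fold below the reference. Its probe (A_51_P308796) gave -4.19, -4.07 and -3.98 in wild-type and -3.77, -3.92, -3.91 and -3.71 in PRA transgenic glands. All PRA transgenic ratios were higher, by 0.25 (standard error 0.12), although in Cy5 alone the difference was 0.22 and the groups overlapped. Fosl2 (Fra-2), the other such relative, gave -1.69, -1.39 and -1.80 and then -1.23, -1.69, -1.68 and -1.24 (A_55_P2803815). PRA transgenic replicates 1 and 4 were the highest arrays and the other two sat within the wild-type range, for a difference of 0.16 (standard error 0.18) that ran from 0.08 to 0.28 when 1 array was left out. The remaining Fosl2 probe (A_51_P507242) had a Cy5 signal well above background in 1 wild-type and 0 PRA transgenic glands.

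Jun proteins bind DNA on their own and as the partners of Fos. Jun, the strongest activator among them, gave -1.05, -0.28 and -1.17 in wild-type and -1.10, -1.32, -1.41 and -0.67 in PRA transgenic glands (A_55_P2158990, chr4:94716928-94716987, minus strand). The groups overlapped widely and the difference of -0.29 (standard error 0.27) rested on wild-type replicate 2, without which it was -0.02.

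Junb, which can oppose Jun in growth control, was read by 3 probes, 2 of them kept. The brightest (A_51_P159194, chr8:87500843-87500902, minus strand) gave -1.07, -0.91 and -0.63 in wild-type and -1.67, -1.37, -1.80 and -1.39 in PRA transgenic glands. The means of -0.87 ± 0.23 (SD, n = 3) and -1.56 ± 0.21 (SD, n = 4) differed by -0.69 (standard error 0.17), 1.61-fold lower, and the groups did not overlap. Cy5 alone separated them as well, with 4.44, 4.73 and 5.05 against 3.91, 4.28, 3.89 and 4.24 relative to the array median. Leaving out 1 array at a time kept the difference between -0.79 and -0.56.

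Junb was also read by a probe that starts 1038 bases from the brightest one. Its letters are shown because its groups overlapped in the ratio but not in Cy5 alone.
Junb probe A_55_P2011106, chr8:87501881-87501940, mm9, minus strand: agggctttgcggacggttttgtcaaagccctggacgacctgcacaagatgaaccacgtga

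This probe gave -2.11, -2.36 and -2.07 in wild-type and -2.72, -2.28, -2.61 and -2.44 in PRA transgenic glands, a difference of -0.33 (standard error 0.15). The ratios overlapped through wild-type replicate 2 and PRA transgenic replicate 2. In Cy5 alone the values of -1.80, -2.09 and -1.76 and of -2.65, -2.20, -2.48 and -2.29 did not overlap and differed by -0.52, while the Cy3 reference, the same RNA on every array, differed by -0.18 without overlap. The size of the difference at this probe depended on whether the reference was used, and the cause of the Cy3 difference was not tested. A further probe named Junb (A_55_P2731021), which starts 4208 bases from the brightest one and carries the accession AK044253 of a cDNA clone, had a Cy5 signal well above background in 0 wild-type glands and 1 PRA transgenic gland.

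Jund, the member with the steadiest expression in most tissues, lay near or above the reference on both of its probes, which start 134 bases apart and so are not independent. The brighter (A_51_P357744) gave 0.51, 0.79 and 0.43 in wild-type and 0.51, 0.27, -0.20 and 0.63 in PRA transgenic glands, a difference of -0.27 (standard error 0.22) with overlap. The other (A_55_P2892246) gave 0.41, 0.77 and 0.60 and then 0.26, 0.11, -0.42 and 0.38, a difference of -0.51 (standard error 0.21). There the ratios did not overlap, by a margin between 0.38 and 0.41, but Cy5 alone did overlap. On both probes PRA transgenic replicate 3 was the lowest array, and without it the difference of the brighter probe was -0.10.

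Atf3, Maff and Batf are bZIP proteins outside the Fos and Jun families. Atf3, a stress-induced repressor that pairs with Jun proteins, gave -1.40, -0.78 and -1.25 in wild-type and -1.85, -1.47, -1.83 and -0.74 in PRA transgenic glands (A_52_P452689). PRA transgenic replicate 4 was the highest of all 7 arrays and the other 3 were the lowest. The difference was -0.33 (standard error 0.30), -0.57 without that array and -0.15 without wild-type replicate 2. Maff, a small Maf protein without an activation domain, gave -2.36, -2.52 and -2.52 and then -2.21, -1.80, -2.06 and -2.90 (A_52_P608322). PRA transgenic replicates 1 to 3 lay above the wild-type range and replicate 4 below it, so the difference of 0.22 (standard error 0.25) became 0.44 without replicate 4 and 0.08 without replicate 2.

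Batf, a partner of Jun in T and B lymphocytes and dendritic cells, lay above the reference on all arrays, with 1.94, 0.49 and 0.84 in wild-type and 1.05, 0.67, 0.80 and 1.29 in PRA transgenic glands (A_51_P114616). The difference was -0.14 (standard error 0.35) and turned to 0.29 when wild-type replicate 1, its highest array, was left out. That array was also highest for T cell markers (5 of 5 detected, Cd3e the brightest in Cy5), with a mean log2 ratio of 2.08 against -0.28 to 0.48 on the others. For B cell markers (3 of 4 detected, Cd79b the brightest in Cy5 and Cd79a not well above background) it had 0.68 against -2.32 to -1.49. Summed Cy5 signals of the T cell list were 5046, 1651 and 1612 in wild-type and 1852, 1513, 1421 and 1491 in PRA transgenic glands. The part of lymphocytes in the Batf values was not tested.

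**Figure D2:**
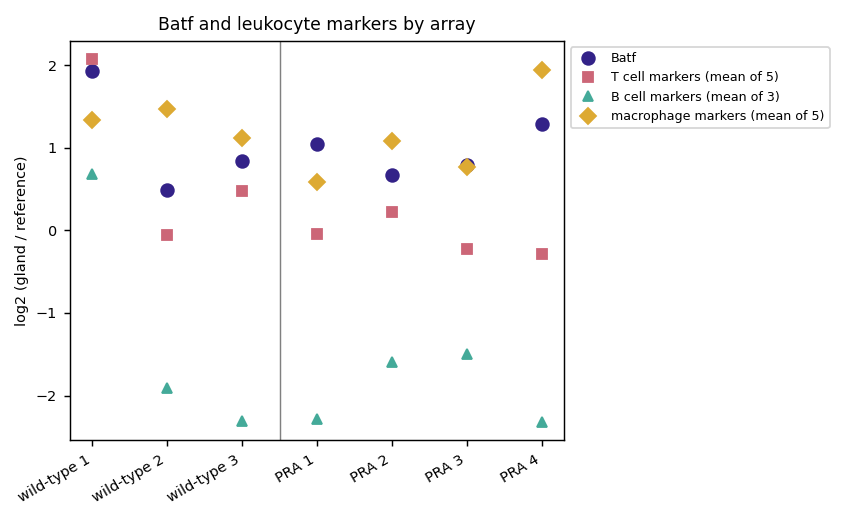
Log2 ratio of gland to reference of Batf and the mean log2 ratio of T cell, B cell and macrophage markers on each array (horizontal axis), with wild-type arrays left of the line. Wild-type replicate 1 is highest for Batf (1.94) and for both lymphocyte lists, and PRA transgenic replicate 4 is highest for macrophage markers (1.95).

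The arrays of a genotype were not alike across the family. PRA transgenic replicate 4 was the highest of its group for 7 of the 10 genes (Fos, Fosb, Fosl1, Jun, Jund, Atf3 and Batf), and replicate 3 was the lowest of all 7 arrays for 5 (Fos, Fosb, Jun, Junb and Jund). Wild-type replicate 2 was the highest of its group for 5 genes (Fos, Fosl2, Jun, Jund and Atf3). The mean over the 10 genes was -1.44, -1.22 and -1.42 on the wild-type arrays and -1.62, -1.66, -1.92 and -1.37 on the PRA transgenic arrays. On this mean PRA transgenic replicate 4 lay within the wild-type range, and the other 3 lay below it.

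Macrophage markers (5 of 5 detected, Lyz2 the brightest in Cy5) were also highest on PRA transgenic replicate 4. Their mean log2 ratios were 1.33, 1.47 and 1.12 in wild-type and 0.59, 1.08, 0.77 and 1.95 in PRA transgenic glands, with summed Cy5 signals of 68561, 84026 and 68852 and of 36939, 57087, 41098 and 103540. Skeletal muscle markers (4 of 5 detected, Acta1 the brightest in Cy5 and Ckm not well above background) had means of 1.78, -1.07 and 3.14 in wild-type and -0.65, -0.63, -0.81 and 2.33 in PRA transgenic glands, also highest of their group on replicate 4. Their summed Cy5 signals were 6418, 685 and 36136 and then 905, 1496, 839 and 11912. Fibroblast markers had means of 1.47, 1.44 and 0.94 in wild-type and 1.00, 0.99, 0.93 and 1.59 in PRA transgenic glands, again highest on replicate 4. Luminal epithelium markers had means of 3.71, 2.81 and 3.82 and then 3.59, 3.90, 2.42 and 3.58, lowest of all 7 arrays on PRA transgenic replicate 3. The part of any of these cell types in the AP-1 values was not tested. Wild-type replicate 1 and PRA transgenic replicate 4 were also both left out, a choice made after seeing the data that drops the lowest wild-type and the highest PRA transgenic value of Fos. The difference was then -2.03 for Fos, -0.46 for Fosb, 0.16 for Fosl1, 0.06 for Fosl2, -0.55 for Jun, -0.84 for Junb, -0.41 for Jund, -0.70 for Atf3, 0.50 for Maff and 0.18 for Batf.

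**Figure D3:**
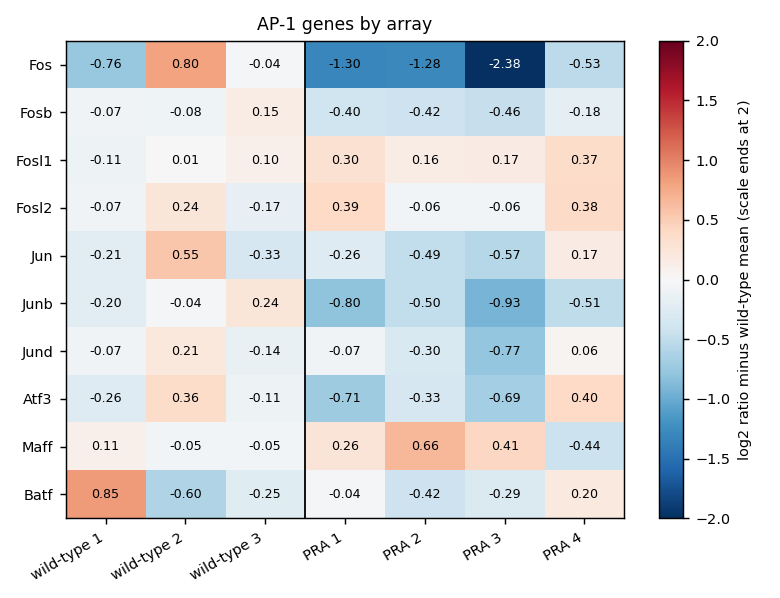
Log2 ratio of each AP-1 gene (rows, by its brightest kept probe) on each array (columns) minus the gene's wild-type mean, blue for below and red for above; the color scale ends at 2 in either direction. Fos, Fosb and Junb are below the wild-type mean on all 4 PRA transgenic arrays, Jun, Jund, Atf3 and Batf on 3 of 4, and PRA transgenic replicate 3 holds the lowest Fos value.

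Taking Cy5 alone, without the reference, left the direction of all 10 genes as in the ratios. The Cy5 difference was -1.31 for Fos, -0.41 for Fosb, -0.24 for Jun, -0.66 for Junb, -0.31 for Jund and -0.39 for Atf3. It was 0.22 for Fosl1, 0.15 for Fosl2 and 0.21 for Maff, and -0.22 for Batf.

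**Figure D4:**
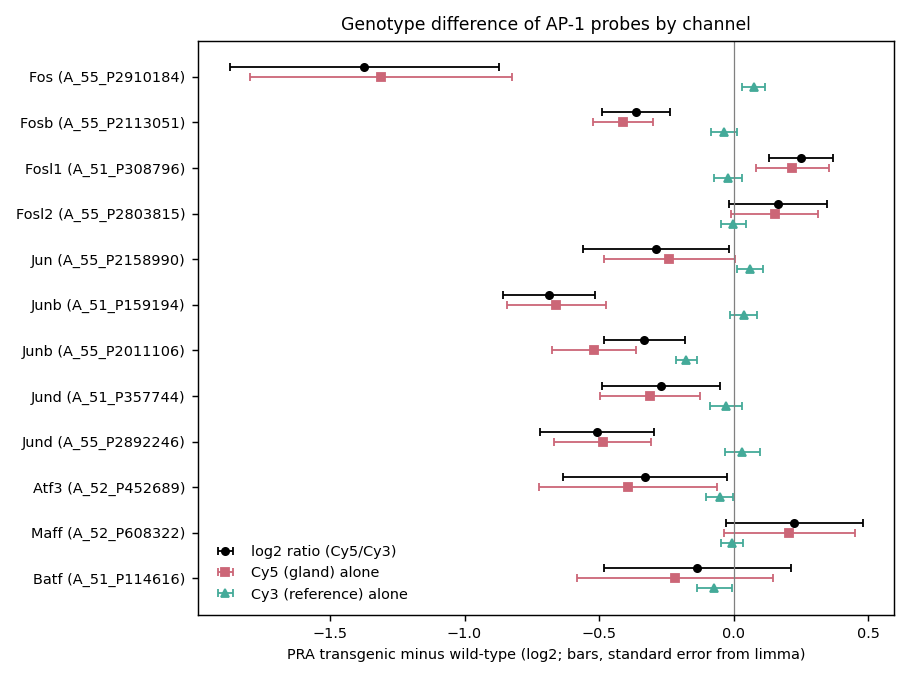
Difference between PRA transgenic and wild-type glands (log2, horizontal axis) for each kept AP-1 probe, in the ratio (black), in Cy5 alone (red) and in the Cy3 reference alone (green), with bars of 1 standard error from limma. The reference differs little for most probes, with its largest difference of -0.18 at Junb probe A_55_P2011106.

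The genes around AP-1 were taken as 4 lists and compared with limma, each gene by its brightest kept probe. Of 20 other immediate-early genes, which are switched on by the same signals as Fos, 19 differences were negative and 1 positive, with a median of -0.60 against 0.01 over all genes. At an unadjusted P under 0.05 and 1.5-fold 9 were lower and 0 higher, where 2.54% of all genes were lower and 1.51% higher. Among the 9 was Npas4, the dimmest gene of the list, with a mean log2 Cy5 signal of 4.34. At an adjusted p under 0.05 (limma with Benjamini-Hochberg adjustment) 0 passed, where 0.0117% of all probes did. An unadjusted P under 0.05 was found for 12, where 7.95% of all genes had one. The study singled out several of them on these same arrays, among them Egr1, Egr3, Nr4a1, Klf2, Ier2 and Zfp36, as it did Junb and Fosb. The count is therefore not independent evidence of their direction. For Fosb the study's fold matches the 1.9-fold measured at the probe not kept here, not the 1.29-fold of the kept probe.

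Egr1, a zinc finger activator induced together with Fos, gave -2.30, -2.11 and -0.81 in wild-type and -3.77, -2.62, -2.83 and -3.80 in PRA transgenic glands, a difference of -1.51 (standard error 0.46, adjusted p = 0.429 from limma). Egr3, its relative, gave -0.40, -0.95 and 0.18 and then -1.82, -1.69, -0.97 and -1.86, a difference of -1.20 (standard error 0.32, adjusted p = 0.405 from limma). Arc, a synaptic immediate-early gene, differed by -1.41 (adjusted p = 0.412 from limma). Nr4a1, an orphan nuclear receptor, differed by -0.92 (adjusted p = 0.429 from limma). Zfp36, which destabilizes cytokine mRNAs, differed by -0.55 (adjusted p = 0.462 from limma). The groups did not overlap for these 5 of the 20 genes, which were named partly for that, where 4.5% of all genes did not overlap in this direction. Without wild-type replicate 3 the difference was -1.05 for Egr1, -0.92 for Egr3, -0.94 for Arc and -0.57 for Nr4a1. With normexp and loess it was -0.77 for Egr3 and -0.93 for Arc, whose probes are dim (mean log2 Cy5 6.44 and 6.20). For Egr1, Nr4a1 and Zfp36 that setting changed little (-1.49, -0.87 and -0.50). On PRA transgenic replicate 4, where Fos was highest of its group, Nr4a1 (-2.72) and Zfp36 (-1.17) were highest of theirs as well, while Egr1, Egr3 and Arc (-2.68) were lowest, by small margins. Over the list that array was the highest of its group for 10 of 20 genes and the lowest for 6.

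Of 26 listed AP-1 target genes 23 could be tested, since Mmp10, Mmp13 and Il6 were too dim to be kept. The differences of 17 were negative and of 6 positive, with a median of -0.20 (-0.33 without PRA transgenic replicate 4 and -0.13 without replicate 3). At an unadjusted P under 0.05 and 1.5-fold 2 of the 23 (Cd44 and Spp1) were lower and 0 higher, where 2.54% and 1.51% of all genes were. At an adjusted p under 0.05 (limma with Benjamini-Hochberg adjustment) 0 passed, and 3 had an unadjusted P under 0.05, where 7.95% of all genes had one. The count of 2 became 1 without wild-type replicate 2, PRA transgenic replicate 2 or PRA transgenic replicate 3, and 6 without PRA transgenic replicate 4. The list mean was -1.18, -1.20 and -1.11 on the wild-type arrays and -1.51, -1.58, -1.82 and -1.21 on the PRA transgenic arrays. Replicate 4 was thus the highest of its group, as it was for the macrophage markers. The differences of those markers were negative for 5 of 5 genes, where 47.3% of all genes were negative. They were small, from -0.36 to -0.10, and 0 had an unadjusted P under 0.05 by limma. Other kept probes of Csf1r (0.30) and Lyz2 (0.12) were positive, while those of Cd68 and Cd14 were negative. The part of macrophages in the target values was not tested.

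Ccl2, the chemokine that draws monocytes, was the target gene with the lowest P and the only one of 23 without overlap, where 4.5% of all genes did not overlap in this direction. It gave -2.26, -2.13 and -2.30 in wild-type and -2.64, -2.87, -2.95 and -2.76 in PRA transgenic glands, a difference of -0.58 (standard error 0.12, adjusted p = 0.340 from limma). Cd44, the hyaluronan receptor, differed by -0.67 (standard error 0.22, adjusted p = 0.462 from limma). The study singled out both genes on these arrays. Spp1, which encodes osteopontin, differed by -2.50 (standard error 0.92, adjusted p = 0.495 from limma) with values from -5.78 to -0.22.

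The other bZIP genes, 25 possible partners and relatives of AP-1, did not lean to either side, with 13 negative and 12 positive differences and a median of -0.02. Nfil3, a repressor with a part in the circadian clock and in lymphocytes, was the 1 gene that was higher at an unadjusted P under 0.05 and 1.5-fold, and 0 were lower (1 without PRA transgenic replicate 4), where 1.51% of all genes were higher and 2.54% lower. Nfil3 gave -1.82, -1.59 and -2.28 in wild-type and -0.40, -0.79, -0.70 and -0.93 in PRA transgenic glands, without overlap, a difference of 1.20 (standard error 0.20, adjusted p = 0.272 from limma). Its other probe differed by 1.22. Atf7, which binds the cyclic AMP response element and can pair with Jun, differed by 0.44 (adjusted p = 0.492 from limma) without overlap, but its other probes ran from -1.32 to 0.35. Ddit3, a stress-induced relative, differed by 0.37 (adjusted p = 0.603 from limma). By limma with Benjamini-Hochberg adjustment 0 of the 25 passed, and 2 had an unadjusted P under 0.05, where 7.95% of all genes had one.

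Upstream of AP-1, the 26 genes listed (MAP kinase cascades with Egfr and Ras, serum response factor with its partners, and Fbxw7 and Cops5, which act on Jun protein) had 14 negative and 12 positive differences, with a median of -0.02. At an unadjusted P under 0.05 by limma 0 were called, where 7.95% of all genes were, and 0 passed the Benjamini-Hochberg adjustment. The genes with the lowest P were Map2k2, which encodes a kinase that activates ERK (log2 difference 0.35), Mapk14, which encodes p38 alpha (log2 difference 0.22), Map3k1, a kinase above JNK (log2 difference -0.32), and Hras (log2 difference 0.23). Map2k2 and Hras had an unadjusted P under 0.05 when PRA transgenic replicate 4 was left out, with differences of 0.46 and 0.34. As the median over a gene's probes the value was -0.10 for Map3k1 and -0.06 for Hras. Elk4, a partner of serum response factor, was the 1 gene without overlap, where 4.5% of all genes did not overlap in this direction, at -0.18 (adjusted p = 0.715 from limma). Its other probes ran from -0.18 to 0.22. These are levels of mRNA, and the activity of the kinases was not measured.

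**Figure D5:**
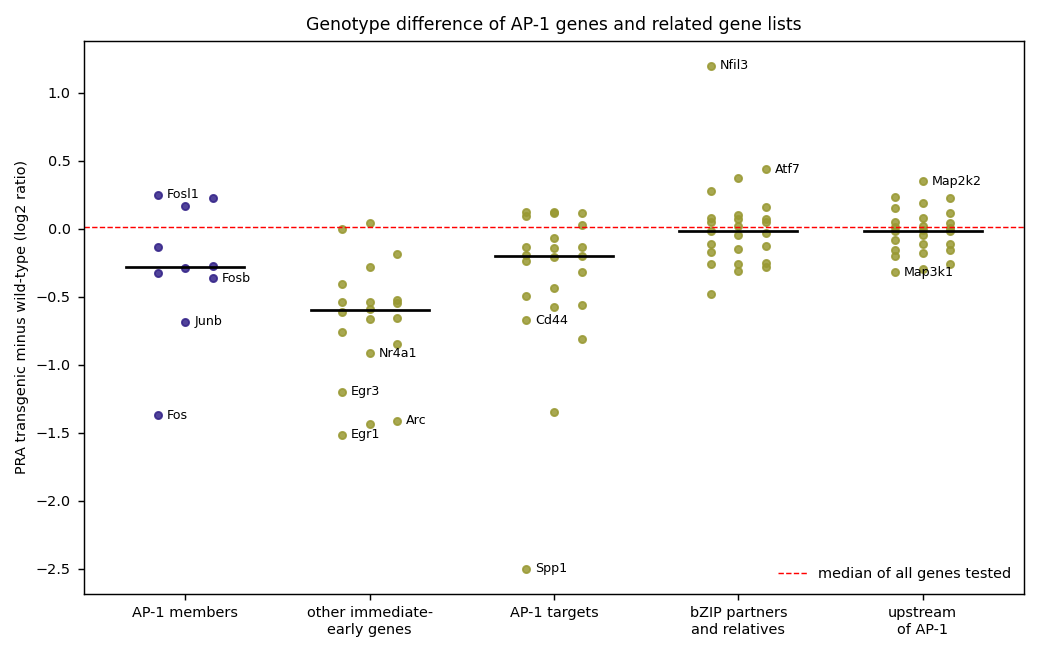
Difference between PRA transgenic and wild-type glands (log2 ratio, vertical axis) for each gene of the AP-1 members and of the 4 related lists, with a black line at the median of each list and a dashed line at the median of all genes. The median is -0.60 for the other immediate-early genes, -0.28 for the AP-1 members and -0.20 for the target genes, while the bZIP partners and the upstream genes center near zero. Without wild-type replicate 2 the median of the members (-0.16) lay above that of the targets (-0.18).

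The genes whose ratios ran most like those of Fos and Junb over the 7 arrays were sought among 22443 genes. For Fos these were Arrdc2 (Pearson r = 0.989), Ints6 (0.987), Nelfb (0.984), Snx14 (0.975) and Srsf5 (0.975). Arrdc2 gave 0.08, 0.37 and 0.28 in wild-type and -0.01, -0.07, -0.27 and 0.13 in PRA transgenic glands, with wild-type replicate 2 highest and PRA transgenic replicate 3 lowest, as for Fos. For Junb they were Ramac (0.991), Rpl23a (0.984), Chfr (0.984), the array's unannotated entry NAP112725-1 (0.984) and Olfr933 (0.981). The points share genotype, slide row and reference, and the best of so many genes over 7 arrays will have a high r, so the values are a description. None of these 10 genes was an immediate-early gene of the list above.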

How the data were processed

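The authors deposited 1 scanner file per array, with processed intensity values from which Agilent Feature Extraction (version 12.0 per the submitters' processing notes) had removed background, spatial trends and dye bias, putting surrogates in place of dim signals. A series table of log2 ratios was deposited as well. Over the kept probes it equaled the median-centered log2 ratio of the processed intensities within 0.01 for 99.9% of values.

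Control spots and outlier spots were left out, spots of a probe were averaged, and log2(Cy5/Cy3) was taken. Of 56605 probes, 34287 were kept, for which all arrays of 1 or both genotypes had Cy5 well above background. No spot was saturated. The precision is limited by how few arrays there are. Genotypes were compared over all kept probes with limma 3.58.1 (lmFit, eBayes; R 4.3.3), and p-values were adjusted by the method of Benjamini and Hochberg. The brightest kept probe in Cy5 stood for a gene. Cy5 and Cy3 alone were taken relative to the array median. The fit was tested on simulated data.

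Groups and replicate numbers came from the labels, and each array was 1 animal. Same-numbered arrays deviated with correlations of 0.10, -0.30 and 0.04, so the numbers were not taken as pairs. Genes were named through RefSeq accessions (32994 probes), symbols (10224) or older symbols (520), and 12867 kept the name in the files. Members were named as in the files. Positions of probes were taken on mm9, as given by the array design, and promoter sequences are on GRCm38.p6.

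The members, the lists and the tests were chosen with earlier results of these data known. Named are all 10 members with every probe, the 4 genes with the lowest P in each list with up to 6 whose groups do not overlap, the 5 genes most like Fos and like Junb, and the leading marker of a cell type. Of the genes this rule names in the lists, 2 are not reported here. Alternatives were normexp (offset 50) with loess, the series table, Cy5 alone, other filters on dim probes, quantile normalization, an intensity trend, array weights, a replicate block, the methods' t-test, the median over probes of a gene and each array left out.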

Additional observations from a re-analysis of the deposited data

Results flagged for a closer look

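In the Junb probe A_55_P2731021, PRA transgenic replicate 3 stood apart from the other 3 arrays of its genotype. Its log2 ratio was 0.31 against -0.60 to -0.46 on the others, and this gap was 0.853 of the whole range, beyond Dixon's critical value for 4 samples. In Cy5 alone, relative to the array median, it was -2.21 against -5.67 to -5.37, a gap of 0.914 of the range. The Cy3 reference at this probe, the same RNA on every array, was also high on that array, at -2.48 against -5.14 to -4.73 on the others of the genotype. This probe was not kept, since it was well above background on 1 array, and the kept Junb probes did not show such a gap. Over 30 groups of 4 arrays (15 probes, ratio and Cy5), 2 were beyond the critical value, where chance gives 1.5. Both are this probe and array, and the ratio and Cy5 of a probe share a signal, so the 30 groups are not independent.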

How the results depend on the processing

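For the member genes the direction was the same under 18 of 18 alternatives except for Batf (16 of 18). However, 4 of these (the series table, both filters on dim probes and the intensity trend) cannot move a fold. The median over probes could move only Junb and Jund, the members with more than 1 kept probe. The replicate block gave the same folds as leaving out PRA transgenic replicate 4. The median over the members, -0.28, was -0.40 when PRA transgenic replicate 4 was left out and -0.15 when replicate 3 of that genotype was. Over all kept probes 273 passed at P under 0.01 and 2-fold, 1552 at P under 0.05 and 1.5-fold and 4 at an adjusted p under 0.05 by limma. In that order the counts were 455, 2443 and 0 with the replicate block, which leaves out PRA transgenic replicate 4 as the only array with its number. They were 130, 996 and 1 with the methods' t-test. With no filter on dim probes they were 730, 3367 and 15. The first and second counts were 36 and 326 with normexp and loess, and 47 and 468 when both channels had to be above background. With array weights 11 probes passed the adjusted threshold. Leaving out 1 array at a time gave 225 to 449, 1382 to 2333 and 1 to 12, with the highest counts without PRA transgenic replicate 4.

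The 2 AP-1 target genes that were lower became 1 with quantile normalization, 4 with array weights, 6 with the replicate block, 1 with the median over probes and 1 to 6 when 1 array was left out. The 0 lower bZIP genes became 1 with the replicate block and 0 to 1 when 1 array was left out. The upstream median of -0.02 ran from -0.0614 to 0.0592, the latter without wild-type replicate 2, and unadjusted P fell under 0.05 for Map2k2 with normexp and loess, array weights or the replicate block and for Elk4 in Cy5 alone. Hras changed from 0.23 to -0.0607 with the median over probes. Without both PRA transgenic replicate 4 and wild-type replicate 1, an alternative chosen after seeing the data, the probe counts were 550, 2564 and 0, and 5 target, 2 bZIP and 1 upstream genes were lower. The 9 lower immediate-early genes became 7 with normexp and loess or with quantile normalization. They became 8 when both channels had to be above background or with the intensity trend, and 11 with array weights or the replicate block. When 1 array was left out the count ran from 6 to 12. The cause of these shifts was not tested. All arrays lay on 1 slide, so a block for the slide could not be fitted.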

Other observations

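Genes whose ratios ran most like those of Batf over the 7 arrays were looked up after its values had been seen. They were Il1rl2 (Pearson r = 0.987), XR_140812 (0.983), Twf2 (0.975), Stat4 (0.973) and Dnah8 (0.965). Stat4, a signal transducer of T and natural killer cells, gave -0.05, -2.18 and -1.55 in wild-type and -1.61, -1.88, -1.80 and -1.35 in PRA transgenic glands, with wild-type replicate 1 highest, as for Batf and for the lymphocyte markers. Egr2, an immediate-early gene outside the rule for naming and chosen after its values were seen, gave 1.74, -0.02 and 1.79 in wild-type and -0.37, -0.40, 0.68 and -0.98 in PRA transgenic glands. PRA transgenic replicate 4 was its lowest array.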
